A study of Rattus norvegicus with 90 samples.

Results

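The transcript profile of rat liver was followed from 8 to 24 h after a single high dose of thioacetamide. The comparison used the 10 liver samples labelled with the high dose, 5 at each time, out of 90 samples in the series, and each sample was an RNA-seq library of bulk liver tissue. The 8 and 24 h animals were male Sprague-Dawley rats purchased at 10 weeks of age, carried a jugular vein catheter, and received 100 mg/kg thioacetamide intraperitoneally. Reference groups were livers of rats given vehicle (saline, 3 ml/kg) or 25 mg/kg at the same times, and the kidneys and hearts of the same study. The rats at the 2 times were different animals, so no animal was sampled at both.

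By the study's methods, the 8 h rats were dosed in the morning and had no food afterwards, whereas the 24 h rats were dosed in the late afternoon and had food until a fast before tissue collection. Livers of both times were collected in the late afternoon. Feeding and the clock time of dosing therefore moved with the time after dosing, and the effects of these in the treated livers cannot be told apart. The vehicle groups carried the same schedule.

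Thioacetamide is a hepatotoxin that the liver itself activates: cytochrome P450 and flavin-containing monooxygenase enzymes oxidize it to reactive metabolites that bind to proteins and lipids. The injury starts in hepatocytes around the central vein, where the P450 enzymes are most abundant, and it is followed by inflammation and by division of surviving hepatocytes. Hepatocytes supply most of the messenger RNA of a liver, and much of it encodes plasma proteins and metabolic enzymes that other organs make little of. In bulk tissue, fewer cells of a type and less RNA per cell cannot be told apart.

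The transcript was the unit throughout, since the tables used here pair no transcript identifier with a gene. Transcripts are given by identifier and no marker gene could be read, so the liver label was checked with transcripts rather than genes. The 583 tested transcripts that were liver-restricted in vehicle animals (at least 1 TPM in liver, and at least 10 times the level in kidney and in heart) held 25.6 to 46.6% of the transcript TPM in the 10 high-dose livers. The same transcripts held 0.237 to 0.641% in the 20 kidney libraries of vehicle and high-dose rats and 0.0739 to 0.125% in the 20 heart libraries, so all 10 libraries matched their liver label.

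Library totals ran from 16641408 to 36303248 estimated counts at 8 h and from 20962157 to 27301043 at 24 h, and the difference of the means did not pass an exact permutation test (p = 0.373, two-sided, 0.603 after adjustment over 4 library measures). The number of transcripts detected was 21723 to 23615 at 8 h and 22674 to 23798 at 24 h (exact permutation p = 0.452). Library MS-14 of the 8 h group stood apart: 28.9% of its counts fell on unnamed genomic intervals, against 4.45 to 8.19% in the other 4 libraries of the group and 6.17 to 14.8% at 24 h. Vehicle libraries MS-16, MS-19, and MS-21 and low-dose libraries MS-15 and MS-18 had high shares as well (18.6 to 26.4%), and the other liver libraries had at most 14.8%. Intervals were left out of the tests of single transcripts, apart from 1 alternative fit. Vehicle library MS-1 (24 h) was left out, and so was low-dose library MS-9 (8 h), because their counts lay within 1 count of each other for 99.96% of 15797 transcripts. Among pairs of high-dose libraries the largest such share was 3.33%.

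With TMM scaling, which sets the bulk of transcripts to no change, more transcripts were called as falling than as rising between 8 and 24 h. Scaling by library totals alone reversed this balance, as given below. Of 17074 transcripts tested, 2428 (14.2%) were called, that is, differed by at least 1.82-fold with an adjusted p of 0.01 or less in edgeR's quasi-likelihood test. At 24 h, 961 transcripts (5.63%) were higher and 1467 (8.59%) were lower than at 8 h. The groups did not overlap for most of these: every 24 h library lay above every 8 h library for 903 of the 961, and below for 1374 of the 1467. Over all transcripts tested, 15.4% had every 24 h library above and 15.4% had every one below. The calls came from the same libraries, so the lack of overlap describes the called transcripts and is not a further test.

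The falls concerned more abundant transcripts and, with TMM scaling, were larger. The median change was 1.21 on the log2 scale (2.31-fold) for transcripts that rose, with quartiles of 1.0 and 1.56. For transcripts that fell it was -1.35 (2.54-fold), with quartiles of -1.74 and -1.09. A change of at least 4-fold was seen for 11.3% of the transcripts that rose and 17.7% of those that fell, and 29 and 53 of them changed by at least 8-fold. At 16-fold and above the order turned, with 10 rises and 6 falls. With library totals alone the order of the medians turned too, to 1.81 for the same transcripts that rose and -0.75 for those that fell. The median level over the 10 livers was 5.19 CPM (counts relative to the TMM-scaled library total) for the transcripts that rose, 24.1 CPM for those that fell, and 8.74 CPM for all tested.

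The balance of rises and falls depended on how libraries were scaled. TMM scaling, which sets the bulk of transcripts to no change, gave factors of 0.791 to 0.844 at 8 h and 1.08 to 1.36 at 24 h, and the median log2 change of all transcripts was 0.00. Scaled to library totals alone, the median transcript was higher at 24 h by 0.61 on the log2 scale, and 5140 transcripts (30.1%) were called, of which 4653 (27.3%) rose and 487 (2.85%) fell, so that rises made up 90.5% of the calls in place of 39.6%. On log2(TPM + 1) with limma the median was 0.43, with 3558 calls (20.8%), 3180 rises (18.6%) and 378 falls (2.21%). Directions below are thus relative to the bulk of transcripts, and a plot of both scalings shows the shift.

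**Figure D1:**
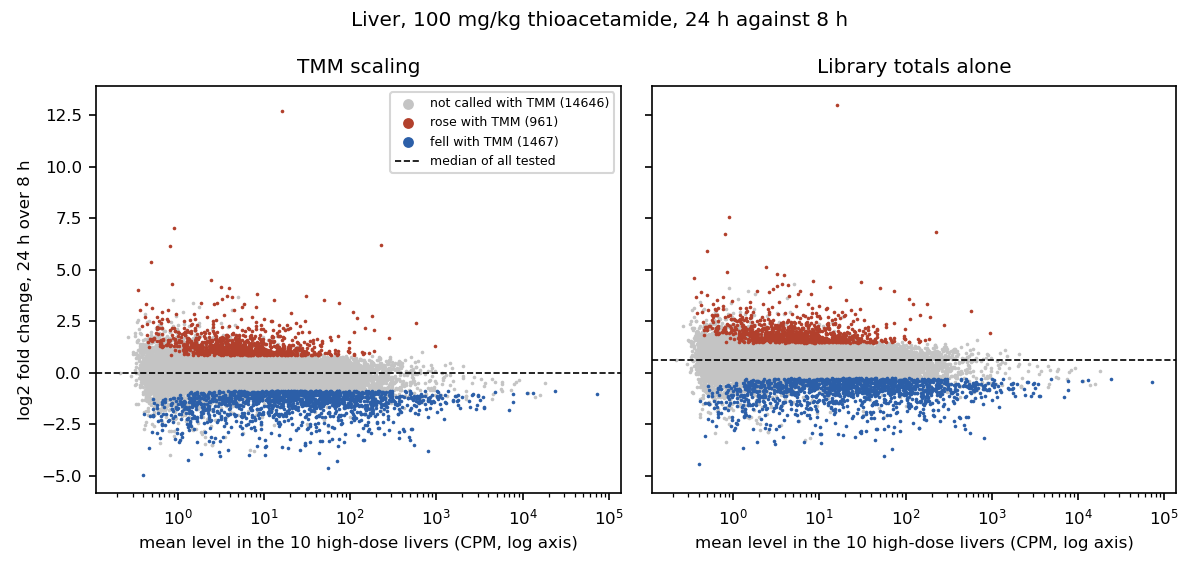
Each point is 1 of 17074 transcripts, with its mean level in the 10 high-dose livers (CPM, log axis) on the horizontal axis and its log2 fold change, 24 h over 8 h, on the vertical axis. The left panel uses TMM scaling and the right panel library totals alone. Colours mark the 961 transcripts that rose and 1467 that fell with TMM, and the dashed line, the median of all tested, sits at 0.00 on the left and 0.61 on the right.

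The share of counts held by abundant transcripts moved with this shift, and its part in the shift was not tested. The 10 most abundant transcripts of each library held 24.6% ± 0.333 (SD, n = 5) of the transcript counts at 8 h and 19% ± 1.67 at 24 h. The ranges, 24.3 to 25.2% and 17.5 to 21.7%, did not overlap (exact permutation p = 0.00794, two-sided, the smallest that 5 against 5 allows; 0.0317 after adjustment over 4 measures). Abundant transcripts thus took a smaller share of the 24 h libraries.

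The same was seen with a fixed set of transcripts ranked in vehicle livers, which the comparison did not use. The 10 transcripts with the highest mean TPM in vehicle held 17.7% ± 1.85 of the transcript TPM at 8 h and 13.7% ± 1.23 at 24 h (exact permutation p = 0.00794, 0.0198 after adjustment over 5 such sets). The top 1000 held 81.2% ± 2.79 at 8 h and 73.6% ± 3.62 at 24 h, with the same p-values. The gaps between the groups were narrow because of 24 h library MS-91. It held 15.76% in the top 10 and 78.9% in the top 1000, against at least 15.83 and 79.3% at 8 h. For the top 100, the groups overlapped, at 51.8 to 68.2% and 38.7 to 53.9% (exact permutation p = 0.0397, also after adjustment). Without MS-14, which held 68.2%, the difference in the top 100 went from -10.2 to -7.07 percentage points (exact permutation p = 0.0794), and p was 0.0635 or 0.0794 without any other library except MS-91 (0.0159). Vehicle livers held 18.3 and 19.6% in the top 10 at 8 and 24 h and 85 and 86.5% in the top 1000. The 24 h high-dose livers lay below them in both. Vehicle shares at 24 h were higher in MS-19 and MS-21, the libraries with many counts on intervals. Their mean in the top 1000 was 88.4%, against 84.7% in the others, and the part of the intervals was not tested. Vehicle livers also ranked these sets, however, which favours high shares in them. Low-dose livers held 18.4 and 15.73% in the top 10 at 8 and 24 h and 82.21 and 77.99% in the top 1000.

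Falls outnumbered rises mainly among the transcripts most abundant in vehicle liver. When the tested transcripts were cut into 4 equal groups by vehicle level, 16% of the highest group (at least 26.6 CPM) fell and 1.57% rose. The median log2 change of that group was -0.16. In the lowest group 5.55% fell and 7.38% rose. The groups between, from the lower to the higher, had 6.4% falls each and 8.53 and 5.04% rises. Length made less difference: 4.97 to 6.56% rose and 7.17 to 9.49% fell across 4 equal groups of transcript length.

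Transcripts that are restricted to the liver fell most often. Of the 583 liver-restricted transcripts, 268 (46%) fell and 6 (1.03%) rose, and their median change was -1.08 on the log2 scale. Of 11116 transcripts shared among organs (at least 1 TPM in liver and in kidney or heart, and within 10 times), 871 (7.84%) fell and 496 (4.46%) rose, with a median of 0.01. Of 1823 transcripts biased to kidney or heart (at least 10 times their liver level), 187 (10.3%) rose and 104 (5.7%) fell, with a median of 0.18. Levels in vehicle animals alone set the classes, among transcripts that passed the low-count filter in the 10 high-dose livers. A transcript low in vehicle liver could pass that filter through either high-dose group, which favours higher values in that group. The classes describe where a transcript is abundant in health, not which cell made it in the injured liver.

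The low position of the liver-restricted class held under each scaling. With library totals alone, 18.5% of liver-restricted transcripts fell and 5.32% rose, and the median of the class was -0.49, which is 1.10 below the median of all transcripts; with TMM it was 1.08 below. With library totals the kidney- or heart-biased class had a median of 0.78, or 0.18 above that of all transcripts. On log2(TPM + 0.1) the latter class lay 0.12 above the median of all, and on log2(TPM + 1) it lay 0.09 below, while the liver-restricted class lay 1.07 and 0.87 below. Without MS-14, 265 liver-restricted transcripts fell and 5 rose.

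Summed over the class, liver-restricted transcripts held 46.6, 42.8, 25.6, 43.9, and 38.6% of the transcript TPM in the 8 h libraries and 30.3, 27.7, 30.2, 29.3, and 25.6% in the 24 h libraries. The means were 39.5% ± 8.31 and 28.6% ± 1.99 (n = 5 each; exact permutation p = 0.0397, also after adjustment). The 24 h libraries lay close together, and the groups overlapped only because of MS-14, the 8 h library with 25.6%. Without it, the 8 h mean was 43.0% ± 3.35 (n = 4), and the difference was -14.4 percentage points in place of -10.9 (exact permutation p = 0.0159). Leaving out any other library raised the exact permutation p to 0.0635 or 0.0794.

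The share of the class moved with the share of counts on intervals in every liver group that held such libraries. In the 6 liver libraries with over 15% of counts on intervals, MS-14 included, liver-restricted transcripts held 25.6 to 32.1%. In the vehicle libraries below that level they held 43.9 to 47.95% at 8 h (n = 4) and 42.8 and 44.2% at 24 h. All vehicle libraries together gave 42.3% ± 6.96 at 8 h (n = 5) and 37.5% ± 6.97 at 24 h (n = 4). Among libraries at or below 15%, a level set after the values were seen, the 24 h high-dose libraries (25.6 to 30.3%) lay below those of 8 h and of vehicle, whereas vehicle library MS-21 (30.9%), with 25.0% of counts on intervals, was close to them. The part of the intervals in these shares was not tested further. Vehicle livers also defined the liver-restricted class, which favours high shares in them.

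**Figure D2:**
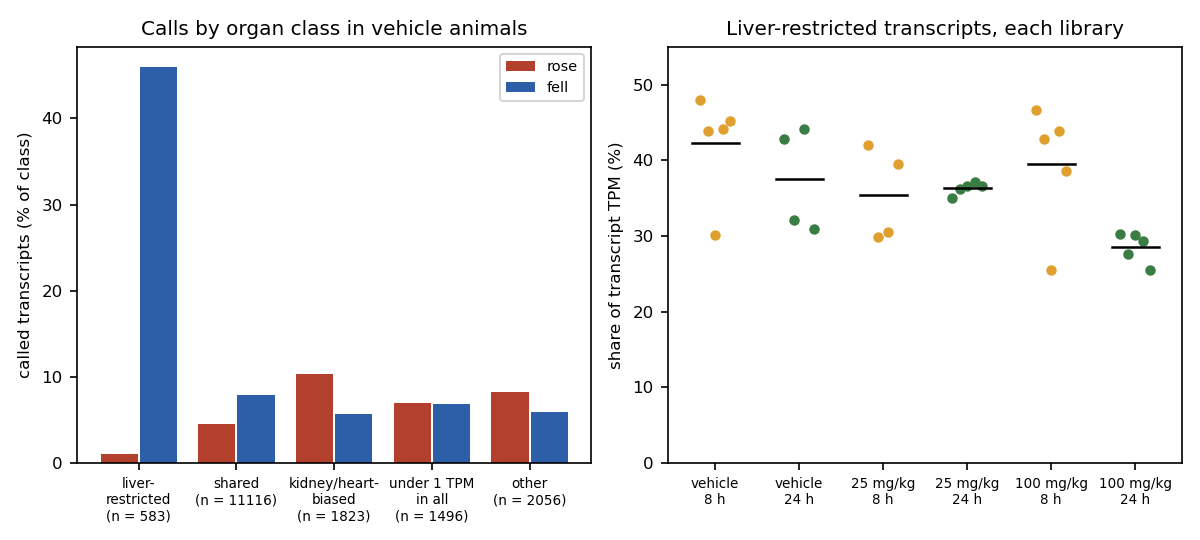
The left panel shows the percentage of each organ class called as rising (red) or falling (blue) from 8 to 24 h, with bars from 0 and the number tested under each class; 46% of the liver-restricted class fell. The right panel shows the share of transcript TPM held by the 583 liver-restricted transcripts in each liver library (points; orange 8 h, green 24 h) with group means as lines, and the 24 h high-dose libraries lie at 25.6 to 30.3%.

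The kidney- or heart-biased transcripts took 0.866% ± 0.223 of the transcript TPM at 8 h and 1.46% ± 0.316 at 24 h, with ranges of 0.579 to 1.19% and 1.05 to 1.84% that overlapped (exact permutation p = 0.0159, 0.0265 after adjustment). Vehicle livers were at 0.631% ± 0.0838 and 0.484% ± 0.104. The share was higher at 24 h than in any vehicle library, of which the highest was 0.735%. Vehicle livers also defined the class, however, which favours low shares in them. The low-count filter used the high-dose livers alone, which favours higher shares in these. Low-dose livers were at 0.759% ± 0.0835 at 8 h and 1.004% ± 0.0929 at 24 h. These transcripts thus remained a small part of the liver's transcripts.

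Whether the transcripts left or approached the vehicle level was described next, by asking if all high-dose libraries lay above or below all vehicle libraries of the same time. The 8 and 24 h libraries are those of the main comparison, so the counts describe the called transcripts and are not a test of them. Over all 17074 transcripts, 18.1% lay above and 16.1% below vehicle at 8 h, and 25.6% lay above and 20.7% below at 24 h. The reference was 5 vehicle libraries at 8 h and 4 at 24 h, and fewer libraries are easier to lie apart from. Against 4 of the 5 at 8 h, 19 to 21.1% lay above and 17 to 20.3% below.

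Transcripts that rose lay below vehicle at 8 h, and above it at 24 h, more often than all tested did. Of the 961 at 8 h, 98 (10.2%, against 18.1% of all) lay above vehicle. Another 572 (59.5%, against 65.8%) overlapped it, and 291 (30.3%, against 16.1%) lay below. At 24 h 593 (61.7%, against 25.6%) lay above, 313 (32.6%, against 53.7%) overlapped, and 55 (5.72%, against 20.7%) lay below. The most common path, for 450 transcripts (46.8%), led from overlapping vehicle at 8 h to above it at 24 h, a path of 13.2% of all transcripts tested. A further 191 (19.9%, against 5.71% of all) were below vehicle at 8 h and overlapped it at 24 h. Another 46 (4.79%, against 0.369%) passed from below to above. The median log2 difference from vehicle went from -0.28 to 0.88.

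Transcripts that fell were more evenly divided. Of the 1467, 580 (39.5%, against 18.1% of all) lay above vehicle at 8 h and 222 (15.1%, against 16.1%) below. At 24 h 273 (18.6%, against 25.6%) lay above and 747 (50.9%, against 20.7%) below. The path from overlapping to below was taken by 505 (34.4%, against 10.5% of all tested), and 287 (19.6%, against 5.92%) were above vehicle at 8 h and overlapped it at 24 h. Another 270 (18.4%, against 12% of all) lay above vehicle at both times in spite of the fall, and 219 (14.9%, against 10%) below at both. The median log2 difference from vehicle went from 0.16 to -0.90. The high-dose mean was nearer to vehicle at 24 h than at 8 h for 44.1% of transcripts that fell and 36.2% of those that rose, against 45.3% of all tested.

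The liver-restricted class was already low at 8 h. Its median log2 difference from vehicle was -0.53 at 8 h and -1.53 at 24 h. Of the 583, 166 (28.5%, against 16.1% of all tested) lay below vehicle at 8 h and 420 (72%, against 20.7%) at 24 h. Only 12 and 19 lay above. The kidney- or heart-biased class had medians of 0.27 and 0.52. At 8 h 359 of 1823 (19.7%) lay above vehicle, near the 18.1% of all tested. At 24 h 668 (36.6%, against 25.6% of all tested) lay above. Against 4 vehicle libraries at 8 h, as at 24 h, 29 to 38.9% of the liver-restricted class lay below, against 17 to 20.3% of all tested. Of the kidney- or heart-biased class 20.2 to 25.9% lay above, against 19 to 21.1% of all tested. Without the libraries with over 15% of counts on intervals, the medians were -0.58 and -1.59 for the liver-restricted class and 0.31 and 0.55 for the other. The vehicle livers that serve as the reference here also defined the classes. This favours values below vehicle for the liver-restricted class and above it for the kidney- or heart-biased class. For the latter, the low-count filter on the high-dose livers favours values above vehicle as well.

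**Figure D3:**
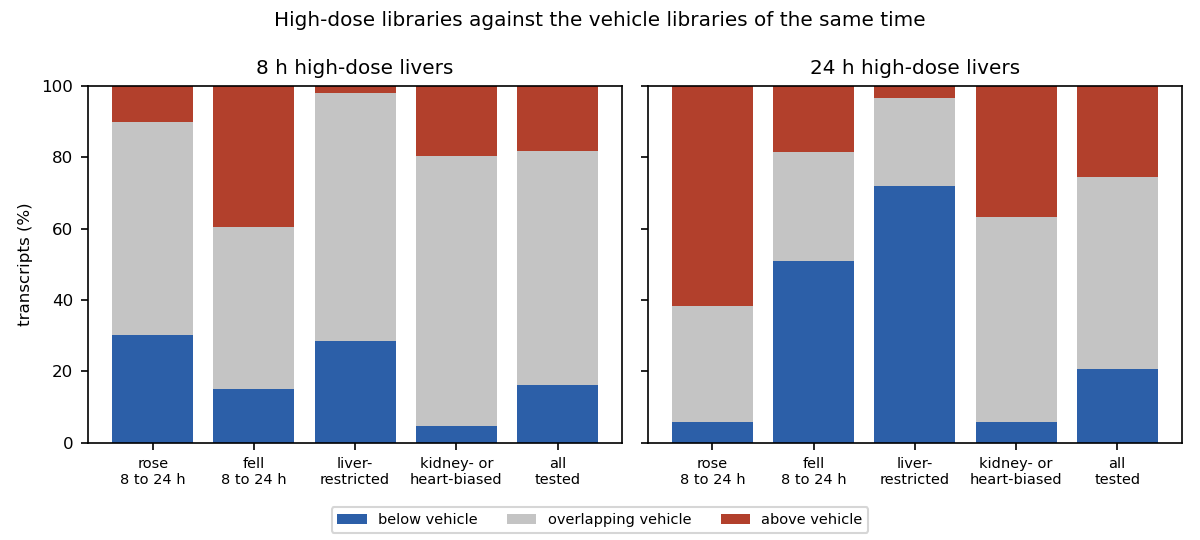
Stacked bars give the percentage of transcripts whose 5 high-dose libraries all lay below (blue), overlapped (grey), or all lay above (red) the vehicle libraries of the same time, 5 libraries at 8 h (left) and 4 at 24 h (right), on TMM-scaled CPM. The blue part of the liver-restricted class grows from 28.5 to 72%, against 16.1 and 20.7% of all tested. The red part of the transcripts that rose reaches 61.7% (593 of 961) at 24 h, against 25.6% of all tested.

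Vehicle livers, which followed the same schedule, gave few calls over the same interval. Between 24 and 8 h, 0 of 16022 transcripts (0%) were called in edgeR, 1438 had an unadjusted p under 0.05, and DESeq2 called 35. Transcripts that rose after the high dose had a median log2 change of -0.04 in vehicle and those that fell -0.03, against -0.02 for all transcripts tested in both. The difference in change over time between high dose and vehicle, tested as an interaction over 19 libraries, passed at an adjusted p of no more than 0.01 for 1878 of 18398 transcripts (10.2%), with 879 (4.78%) more positive after the high dose and 999 (5.43%) more negative.

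Most of these transcripts also differed in the same direction after the low dose, by less. These livers share no library with the high-dose livers. Of the 961 that rose, 942 were tested at 25 mg/kg, and 874 of them (92.8%) were higher at 24 h than at 8 h, with a median log2 change of 0.57. Of the 1421 tested that fell, 1231 (86.6%) were lower, with a median of -0.47. Over all 16583 transcripts tested in both, 50.6% were higher, and the Spearman correlation of the 2 changes across transcripts, which are not independent replicates, was 0.537.

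Few of these low-dose changes were called. The low dose gave 469 calls among 17150 transcripts (2.73%), of which 273 (1.59%) were rises and 196 (1.14%) falls. Of the transcripts that rose after the high dose, 154 (16.3%) were called as rising at the low dose, and of those that fell, 159 (11.2%) were called as falling, against 1.63 and 1.18% of all transcripts tested in both. The difference between doses passed its interaction test for 1053 of 18474 transcripts (5.7%), 355 (1.92%) more positive and 698 (3.78%) more negative at the high dose. That count ranged from 604 to 1296 with 1 library left out. The liver-restricted class had a median log2 change of -0.12 at the low dose, and 28 of 581 fell.

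Fewer transcripts were called in the other organs of high-dose rats. In kidney 230 of 18840 transcripts (1.22%) were called between 24 and 8 h, 88 rises (0.467%) and 142 falls (0.754%). In heart 8 of 17540 (0.0456%) were called, 2 rises (0.0114%) and 6 falls (0.0342%). Transcripts that fell in liver were lower in kidney for 793 of 1310 (60.5%, against 46.3% of all tested in both), and 47 of them (3.59%) were called as falling there, against 0.596% of all. Transcripts that rose in liver were higher in kidney for 547 of 931 (58.8%, against 53.7% of all). In heart 54.4% of those that rose were higher (49% of all) and 49.5% of those that fell were lower (51% of all). The Spearman correlation with liver across transcripts was 0.0731 for kidney and 0.0597 for heart.

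Single transcripts were followed through all libraries for the 2 largest rises and the 2 largest falls among 1940 called transcripts whose groups did not overlap and whose mean reached 2 CPM. They were chosen by their change from 8 to 24 h, so that change is a description. The estimation program divides reads among similar transcripts, and how much of each value belongs to a related transcript is uncertain.

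ENSRNOT00000086221, of 2424 bases, was not detected in the 8 h libraries. It had 0 counts in all 5, and 30.3, 32.4, 38.01, 25.3, and 34.5 CPM in the 24 h libraries, or 32.1 CPM ± 4.76 (632 to 1314 counts). Against a floor of 3 counts per library, which is at most 0.211 CPM, its 24 h mean was at least 152-fold higher (adjusted p = 2.16e-06, edgeR). Every 24 h library was high and the spread among them was small.

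The same transcript was uneven elsewhere. Vehicle livers had 0, 0, 0, 3.95, and 3.19 CPM at 8 h and 0, 0.0611, 0, and 6.32 CPM at 24 h. Low-dose livers had at most 0.820 CPM at 8 h and 0.685 to 18.7 CPM at 24 h (adjusted p = 0.0119, edgeR, which missed the threshold). Zeros thus also occurred in untreated animals, while no library outside the 24 h treated groups exceeded 6.32 CPM in liver. The change over time differed between high dose and vehicle (adjusted p = 0.00929, edgeR) and missed the threshold between the doses (adjusted p = 0.0546, edgeR). Kidneys of high-dose rats ranged from 0.0013 to 8.61 TPM at 8 h and from 0.0114 to 13.7 TPM at 24 h.

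ENSRNOT00000067875, of 1467 bases, rose from a low and even level. It measured 3.79, 5.64, 7.47, 4.59, and 8.97 CPM at 8 h, close to the 1.72 to 5.98 CPM of vehicle livers at that time. At 24 h it measured 463.2, 374.2, 178.3, 218.8, and 986 CPM, so that the lowest 24 h library lay far above every 8 h library although the 24 h values differed widely among themselves. The log2 change was 6.19 (SE 0.54, 72.9-fold, adjusted p = 1.95e-05, edgeR).

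For this transcript the rise differed between the doses. At the low dose it went from 2.13 to 8.19 CPM at 8 h to 10.2 to 69.7 CPM at 24 h, a log2 change of 2.79 (SE 0.60, adjusted p = 0.0112, edgeR, which missed the threshold). The difference between high and low dose was 3.36 on the log2 scale (SE 0.77, adjusted p = 0.00769, edgeR), and that between high dose and vehicle was 5.61 (SE 0.82, adjusted p = 0.00017). In TPM, high-dose kidneys lay above high-dose livers at 8 h, with 369.9 to 457.2 against 3.26 to 7.21 TPM. At 24 h the organs overlapped, with 555.1 to 2246 TPM in kidney and 212.1 to 1257 TPM in liver. The kidney change was 1.26 on the log2 scale and missed the threshold (adjusted p = 0.0443, edgeR). Vehicle kidneys also held high levels, at 215.1 to 400.1 TPM at 8 h and 232.2 to 478.8 TPM at 24 h.

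ENSRNOT00000027785, of 6413 bases, was high at 8 h and back in or under the vehicle range at 24 h. Its 8 h values were 66.8, 137, 134, 97.3, and 98.4 CPM, above the 4.30 to 15.7 CPM of vehicle livers. At 24 h they were 3.12, 3.81, 5.12, 5.48, and 4.08 CPM, within or just under the 3.74 to 15.1 CPM of vehicle. The log2 change was -4.62 (SE 0.24, 24.6-fold, adjusted p = 1.58e-06, edgeR).

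Low-dose livers showed the same course, from 27.7 to 85.1 CPM at 8 h to 1.92 to 6.77 CPM at 24 h (log2 change -3.50, SE 0.38, adjusted p = 0.00103, edgeR). The difference between the doses missed the threshold (-1.15 on the log2 scale, SE 0.45, adjusted p = 0.0974, edgeR), and that between high dose and vehicle passed it (-4.57, SE 0.52, adjusted p = 1.81e-05). In high-dose kidneys the transcript also fell, from 2.87 to 5.31 TPM at 8 h to 1.08 to 1.65 TPM at 24 h (log2 change -1.59, adjusted p = 0.00135, edgeR).

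ENSRNOT00000066282, of 1376 bases, fell from a variable level. Its 8 h values were 291.4, 173.1, 16.6, 96.8, and 88.1 CPM, and its 24 h values 8.86, 2.17, 9.86, 8.56, and 4.60 CPM. The groups were kept apart by a narrow gap, between the 16.6 CPM of MS-14 and the highest 24 h library. The log2 change was -4.29 (SE 0.69, 19.6-fold, adjusted p = 0.000691, edgeR).

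Values of about 10 CPM were also found without the drug. Vehicle livers had 118, 10.4, 12.4, 9.15, and 82.3 CPM at 8 h, with high and low animals in 1 group, and 76.8 to 143.1 CPM at 24 h. Low-dose livers had 7.98 to 109.8 CPM at 8 h and 8.73 to 76.9 CPM at 24 h and missed the threshold (log2 change -0.54, adjusted p = 0.71, edgeR). The high dose differed from vehicle by -5.41 on the log2 scale (SE 1.08, adjusted p = 0.00185, edgeR) and from the low dose by -3.80 (adjusted p = 0.0446, which missed the threshold). In high-dose kidneys it fell as well, from 44.5, 27.6, 0, 21.2, and 33.2 TPM to at most 0.57 TPM (log2 change -6.93, adjusted p = 0.0075, edgeR). Vehicle kidneys were uneven too, at 0 to 15.2 TPM at 8 h and 0 to 26.9 TPM at 24 h, so values of 0 also occurred without the drug.

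**Figure D4:**
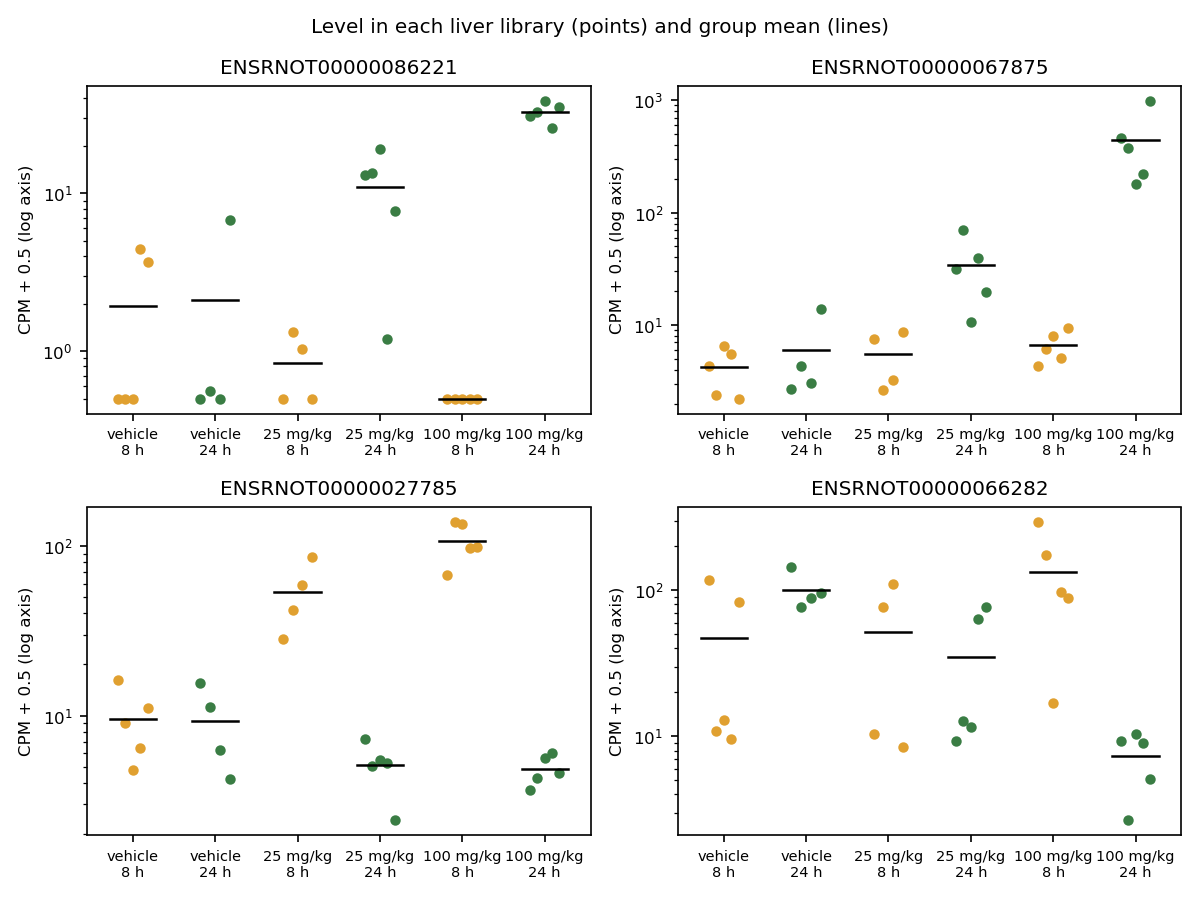
Each panel gives 1 transcript's level in every liver library (points; orange 8 h, green 24 h) and the group mean (lines) as CPM + 0.5 on a log axis, for vehicle, 25 mg/kg, and 100 mg/kg. The upper pair rose to 25.3 to 38.01 CPM and 178.3 to 986 CPM in the 24 h high-dose livers, and the lower pair fell to at most 5.48 and 9.86 CPM.

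Across all transcripts, the high-dose libraries separated by time. In a principal component analysis of the 10 libraries on log2(CPM + 0.5), the component that held 47.6% of the variance placed the 8 h libraries between -49.6 and -38.7 and the 24 h libraries between 35.3 and 55.2. With vehicle livers added, dose lay along the leading component (46.6%). The next (15.3%) separated the times among the high-dose livers but not among the vehicle livers. On this component, the 8 h high-dose libraries were at 39.2 to 52.9 and the 24 h high-dose libraries at -49.0 to -35.2. Vehicle livers of both times overlapped and lay between, at -12.2 to 5.49.

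Libraries within a time varied to a similar extent. The median SD of a transcript on the log2 scale was 0.257 at 8 h and 0.228 at 24 h, and 0.283 and 0.256 in the vehicle groups. Library MS-91 lay nearest to the 8 h livers among the 24 h libraries. For the transcripts called without it, its median log2 difference from 8 h was 0.87 for rises against 1.04 in the other 4 libraries, and -1.09 for falls against -1.30. Without MS-91, 2462 transcripts were called, and without MS-14, 2256.

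**Figure D5:**
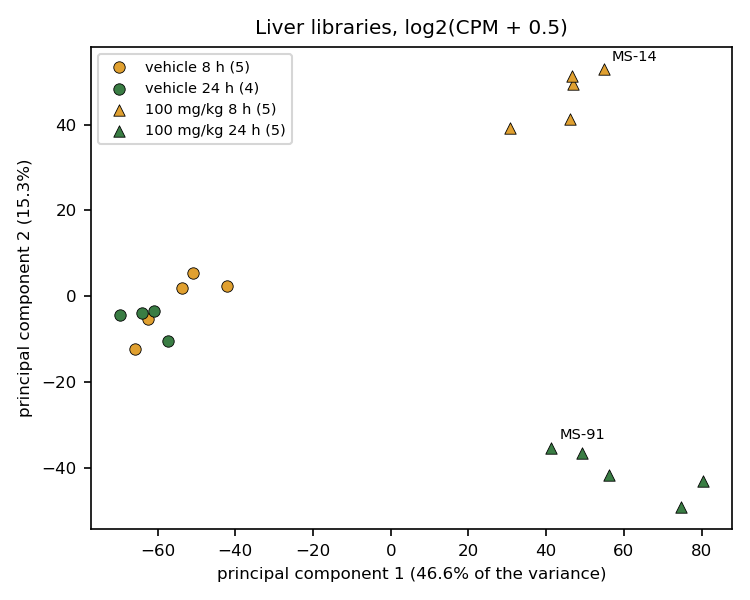
Each symbol is 1 liver library placed by 2 principal components of log2(CPM + 0.5), with the percentage of variance on each axis; circles are vehicle, triangles 100 mg/kg, orange 8 h, and green 24 h. The high-dose libraries of the 2 times lie at 39.2 to 52.9 and at -49.0 to -35.2 on the vertical axis, with vehicle between, and MS-14 and MS-91 are marked.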

How the data were processed

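RNA was measured in 90 samples of rat liver, kidney, and heart, of which 10 livers were compared here. The authors quantified reads with kallisto (0.42.2, Rnor_6.0, in the submitters' processing notes) and deposited an estimated count and a TPM, scaled by length and depth, for 65166 targets per library. The estimated counts of 40071 transcripts were rounded and 25095 unnamed intervals were left out. edgeR 4.0.16 (R 4.3.3; default low-count filter, TMM, quasi-likelihood test, Benjamini-Hochberg adjustment) was the main test, with calls at an adjusted p of 0.01 or less and a natural-log fold change of 0.60 or more (0.866 on the log2 scale). Interactions had no size limit. CPM values share 1 TMM scale over 28 liver libraries. Library measures were compared by exact permutation tests in scipy 1.17.1. Counts and precision follow the library totals, and counting error only is covered by the floor of 3 counts.

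The 4 transcripts given by identifier were the 2 largest rises and 2 largest falls among calls whose groups did not overlap and whose mean reached 2 CPM. The comparison and its rules were chosen with earlier results of these data known. DESeq2 1.42.0, limma 3.58.1 on log2-transformed TPM (1 or 0.1 added), other filters and scalings, and leaving out each library were tried. The scripts were tested on simulated data. Replicates are separate rats by the study's methods.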

Additional observations from a re-analysis of the deposited data

Results flagged for a closer look

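The share of counts on unnamed genomic intervals was 28.86% in 8 h library MS-14, and the next highest of its group was 8.186%. It exceeded Dixon's limit for 5 samples, among 16 groups examined, and chance flags about 1 group in 20. Its part in the results was not tested beyond the values without this library given above.

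The change from 8 to 24 h differed between high dose and vehicle for 1878 transcripts and between high and low dose for 1053, both by an interaction test. Among the transcripts given by identifier, ENSRNOT00000086221 differed from vehicle by a fitted 12.28 on the log2 scale, which rests on groups at 0 counts and is no bound. ENSRNOT00000067875 differed by 5.61 from vehicle and by 3.36 from the low dose. ENSRNOT00000027785 and ENSRNOT00000066282 differed from vehicle by -4.57 and -5.41.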

How the results depend on the processing

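Against 2428 calls (961 rises, 1467 falls), library totals alone gave 5140 (4653 and 487), limma on log2(TPM + 0.1) gave 5033 (4579 and 454), and limma on log2(TPM + 1) gave 3180 rises and 378 falls; the last pair change the unit and the test too. Without a limit on the fold change there were 4623 calls (2263 and 2360). Other filters, DESeq2, its size factors, all liver groups in 1 fit, and intervals in the fit stayed within 1.5 times, as did leaving out 1 library (2032 to 2462 calls; 754 to 988 rises; 1278 to 1509 falls). The 4 transcripts given by identifier kept their direction and call under all 19 alternatives each. Scaling by library totals, leaving out libraries for the library measures or for their share of intervals, and 4 vehicle libraries at 8 h were chosen after seeing the data.

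DESeq2 called 35 transcripts in vehicle and 2063 between the doses. Leaving out 1 library gave 604 to 1296 between the doses, with the lowest counts without low-dose libraries MS-15 (604), MS-18 (660), MS-7 (681), and MS-2 (690), and without high-dose libraries MS-26 (677) and MS-11 (688). The cause was not tested. The difference in the share of the top 10 transcripts ranged from -6.268 to -5.223 percentage points, and its adjusted p was 0.0635 with 9 libraries. The smallest exact permutation p of 4 against 5 is 0.0159, which the adjustment over 4 measures raised to 0.0635. This rise therefore follows from the number of libraries. The difference in the share of intervals ranged from -2.359 to 3.743, the latter without MS-14. Sums per gene were not run, since no table used here pairs transcripts with genes. No paired analysis was possible because the library numbers are unique. At 5 libraries per group, an exact permutation p cannot go below 0.00794.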
